A study of Mus musculus with 10 samples.

Results

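The 10 genes described here are Pck1, Pcx, Fbp1, G6pc, Ppargc1a, Gcgr, Insr, Irs1, Irs2 and Igfbp1. They were chosen by name as enzymes of gluconeogenesis, hepatic genes through which glucagon and insulin act on it, and a gene that insulin lowers (Igfbp1). They are 10 of the 24052 gene symbols counted. Messenger RNA was sequenced from whole livers of 5 wild-type (WT) mice and 5 liver-specific Ndrg3 knockout (Ndrg3 LKO) mice, all of C57BL/6 background (the floxed line was backcrossed to C57BL/6N) and fed ad libitum. In Ndrg3 LKO mice, exon 4 of Ndrg3, lying between loxP sites, was removed by a Cre recombinase driven from the albumin promoter, which is active in hepatocytes, so that other liver cell types may keep an intact gene. The controls were wild-type littermates, and no source used here says whether any of them carried the floxed allele or Cre alone. Male mice were used unless otherwise stated, and the methods place these livers at 8 to 10 weeks of age, whereas a figure legend gives 10 to 12 weeks. A legend for gene expression in these livers counts 4 Ndrg3 LKO mice, without saying which liver is not among them, and all 5 are used here. No source used here gives the time of day or the time since the last meal. A difference in either could not be told apart from genotype. The question was how the loss of Ndrg3 changed expression of these genes in livers of mice fed ad libitum.

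Gluconeogenesis makes glucose from lactate, amino acids and glycerol, and the liver carries out most of it. Its committed steps bypass the irreversible steps of glycolysis: pyruvate carboxylase (Pcx) and phosphoenolpyruvate carboxykinase (Pck1) carry pyruvate to phosphoenolpyruvate, fructose-1,6-bisphosphatase (Fbp1) removes a phosphate further along, and glucose-6-phosphatase (G6pc) releases free glucose. Glucagon acts through its receptor and cAMP to raise transcription of Pck1, G6pc and the coactivator gene Ppargc1a in fasting. Insulin acts through the insulin receptor, the substrates IRS1 and IRS2 and the kinase AKT, which keeps FOXO1 out of the nucleus and lowers transcription of Pck1, G6pc, Irs2 and Igfbp1.

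Because cAMP and insulin act on these genes through their promoters, the letters just upstream of the starts are shown for the 6 members in which a searched motif was found. The sequences come from the RefSeq promoter table (build GRCm38.p6), whose windows hold the 250 bases before each start, and each was placed by an exact and unique match in mm9. A window was found for 9 of the 10 members, with Insr not in the table. The motifs, searched on both strands, were TGACG, the core letters of the cAMP response element, the full element TGACGTCA that contains it, CAAAACA, the core of the insulin response element, and GTAAACA, a FoxO consensus. Capitals mark TGACG, which on the printed strand reads CGTCA, and CAAAACA, which may read TGTTTTG. A sequence was ended early where it would have run past the gene start of either annotation.
Pck1 chr2:172978324-172978548, plus strand: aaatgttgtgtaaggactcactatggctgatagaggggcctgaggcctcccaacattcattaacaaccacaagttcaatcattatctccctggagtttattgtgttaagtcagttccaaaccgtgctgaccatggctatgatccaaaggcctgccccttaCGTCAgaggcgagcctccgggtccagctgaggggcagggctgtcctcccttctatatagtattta
Ppargc1a chr5:51958965-51959214, minus strand: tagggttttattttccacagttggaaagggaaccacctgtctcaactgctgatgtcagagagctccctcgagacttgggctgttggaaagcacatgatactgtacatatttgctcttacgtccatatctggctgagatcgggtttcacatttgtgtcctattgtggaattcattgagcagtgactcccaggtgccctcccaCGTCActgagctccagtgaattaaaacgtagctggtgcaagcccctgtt
Irs1 chr1:82288015-82288264, minus strand: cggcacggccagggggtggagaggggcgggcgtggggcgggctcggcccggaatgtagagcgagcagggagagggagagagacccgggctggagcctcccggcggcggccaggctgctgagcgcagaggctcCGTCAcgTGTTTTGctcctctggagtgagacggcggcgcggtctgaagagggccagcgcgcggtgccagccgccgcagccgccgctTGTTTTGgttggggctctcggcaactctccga
Irs2 chr8:11008930-11009179, minus strand: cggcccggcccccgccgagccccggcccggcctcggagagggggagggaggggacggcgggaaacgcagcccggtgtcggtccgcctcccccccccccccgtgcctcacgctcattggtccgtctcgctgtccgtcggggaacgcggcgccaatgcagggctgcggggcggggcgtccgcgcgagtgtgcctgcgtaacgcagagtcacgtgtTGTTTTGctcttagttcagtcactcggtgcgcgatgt
G6pc chr11:101228780-101228874, plus strand: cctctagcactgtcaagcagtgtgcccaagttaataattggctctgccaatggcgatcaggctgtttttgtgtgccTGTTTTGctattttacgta
Igfbp1 chr11:7097540-7097784, plus strand: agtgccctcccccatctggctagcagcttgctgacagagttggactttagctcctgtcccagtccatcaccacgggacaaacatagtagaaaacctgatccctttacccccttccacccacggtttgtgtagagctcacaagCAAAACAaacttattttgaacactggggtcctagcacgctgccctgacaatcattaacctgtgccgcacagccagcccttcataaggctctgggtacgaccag

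TGACG stood in 3 of the 9 members with a window, against 17.8% of all 32851 windows of the table. It lay 90 to 86 bases before the RefSeq start of Pck1, 49 to 45 bases before that of Ppargc1a and 118 to 114 bases before that of Irs1. CAAAACA was present in 4 of the 9 members, against 5.56% of all windows. It lay 174 to 168 bases before the RefSeq start of G6pc and 37 to 31 bases before that of Irs2. For Igfbp1 it lay at 108 to 102 bases, and for Irs1 at 2 places, 111 to 105 and 32 to 26 bases. The RefSeq window of G6pc ended at chr11:101229029, past the GENCODE start of the gene at 101228875. The match in G6pc was therefore nearer to the GENCODE start. The full cAMP element was in 0 of 9 windows, against 1.55% of all windows, and GTAAACA in 0 of 9, against 3.17%. A match of letters is a description of the window and not a site shown to be bound. The 4 genes with CAAAACA included genes with higher, lower and not significantly different counts in Ndrg3 LKO livers, as given below.

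The libraries held 20872262 to 24747870 counts in WT and 23474693 to 30450057 in Ndrg3 LKO livers. Levels are given as CPM, the count of a gene relative to its library's total after TMM scaling, a factor for each library that sets the bulk of genes level between libraries. Ndrg3 itself fell from 18.5 ± 2.22 CPM in WT to 8.06 ± 0.76 CPM in Ndrg3 LKO (SD, n = 5 livers each; log2 fold change -1.20, SE 0.13, adjusted p = 3.87e-05, edgeR quasi-likelihood test), and all 5 Ndrg3 LKO livers lay below every WT liver. Its count is over the whole gene and does not isolate exon 4. Ndrg3 LKO replicate 5 stood apart: the summed level of 10 hepatocyte markers was 164000 CPM in it, 37870 to 47230 CPM in the other 4 Ndrg3 LKO livers and 164600 to 201100 CPM in WT, although its Ndrg3 level (8.25 CPM) was like theirs. Values without this liver are given beside each of the 10 genes, and beside a related gene where they moved its fold by over 1.5 times. Summed markers of other cells, in WT and then in Ndrg3 LKO livers, were 92.7 to 230.2 and 205 to 644 CPM for macrophages, 51.0 to 66.7 and 106 to 147 CPM for endothelial cells, 40.7 to 76.1 and 68.7 to 117 CPM for stellate cells and fibroblasts, and 49.8 to 80.4 and 56.9 to 228 CPM for cholangiocytes. Lymphocyte markers summed to at most 7.02 CPM, adipocyte markers to at most 28.6 CPM and pancreas markers to at most 58.7 CPM, with Gcg, Sst and Amy2a5 at 0 counts in every liver. Of the markers tested, 8 of 10 for hepatocytes were lower in Ndrg3 LKO (9 without replicate 5), and 9 of 9 for macrophages, 6 of 7 for endothelial cells and 4 of 7 for stellate cells and fibroblasts were higher. Among all genes tested, 25.6% were higher and 23.0% lower. The fall was uneven over the 10 hepatocyte markers, from -3.56 on the log2 scale for Cyp2e1 to -0.14 for Asgr1, which was not called. The part of this shift in the results below was not tested. In whole liver, fewer hepatocytes, less RNA per hepatocyte and a change in expression of the markers themselves cannot be told apart.

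Among the 10 genes, 4 were higher and 4 lower in Ndrg3 LKO livers at an adjusted p under 0.05 (edgeR, Benjamini-Hochberg over 11208 genes), and Pck1 and G6pc did not pass. Ppargc1a, Irs2, Irs1 and Fbp1 rose, and Igfbp1, Gcgr, Pcx and Insr fell. The background was high: of the 11208 genes tested, 48.6% were called, with 25.6% higher and 23.0% lower in Ndrg3 LKO. The groups did not overlap for 6 of the 10 genes, against 31.5% of all genes tested. All 10 passed the filter of 1 CPM in 5 livers. The counting was done with a strand setting not given in the sources used here. Pcx, Fbp1, Gcgr, Insr, Irs1 and Irs2 each overlap an annotated gene on the opposite strand, introns included. Their counts may be affected by that overlap, in a direction not known here.

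**Figure D1:**
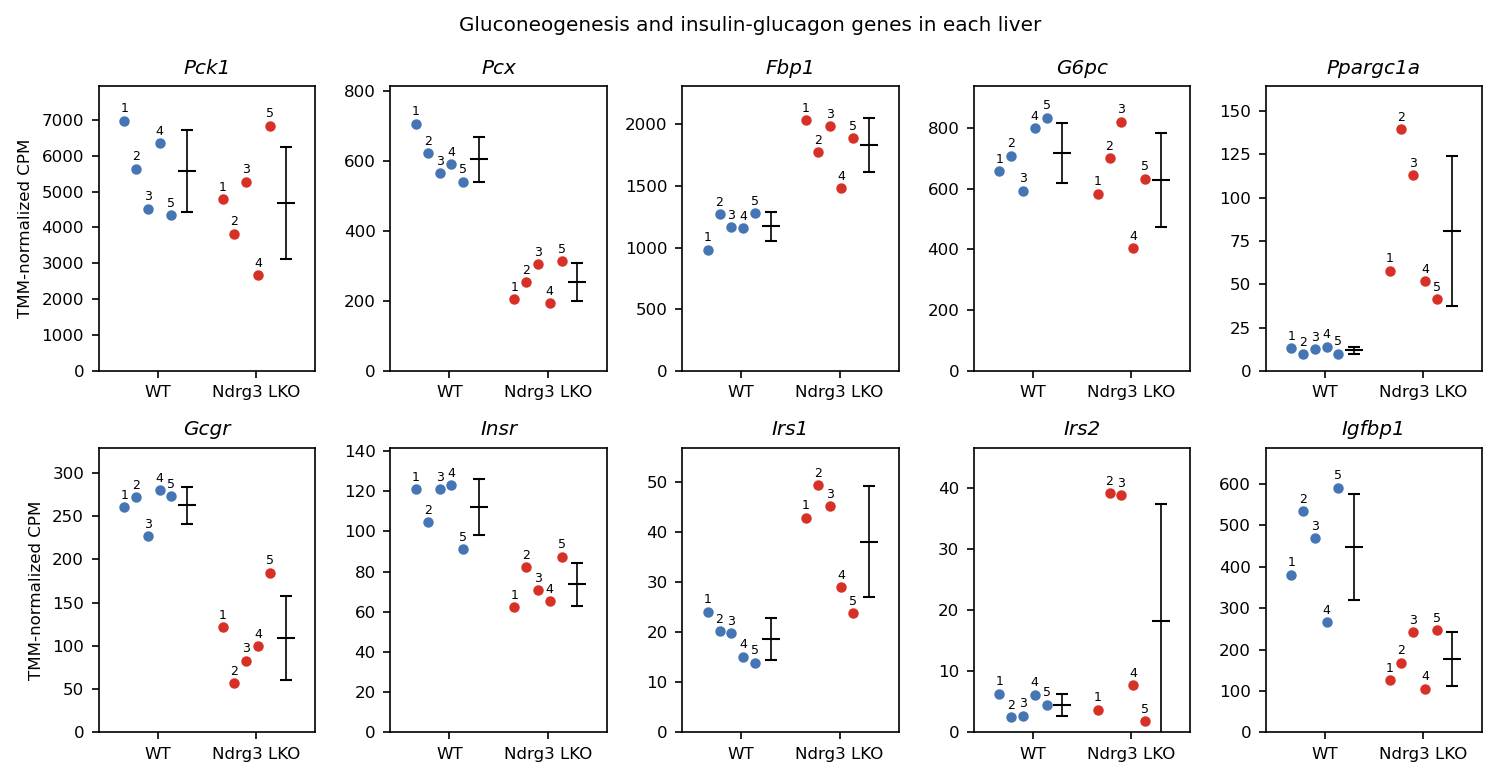
TMM-normalized CPM of the 10 genes in each of the 5 WT (blue) and 5 Ndrg3 LKO (red) livers, on linear axes from 0; numbers are replicates, and the bar at the right of each group is the mean with its SD (the lower end for Irs2 in Ndrg3 LKO runs below 0 and is not drawn). The groups are fully apart for Pcx, Fbp1, Ppargc1a, Gcgr, Insr and Igfbp1, whereas Irs2 is high in Ndrg3 LKO replicates 2 and 3 only, at 39.2 and 38.8 CPM.

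Pcx (chr19:4510472-4621752, plus strand, mm9) encodes pyruvate carboxylase, the mitochondrial enzyme that makes oxaloacetate from pyruvate. Its levels were 707, 623, 564, 592 and 541 CPM in WT replicates 1 to 5 and 205, 254, 305, 194 and 314 CPM in Ndrg3 LKO replicates 1 to 5. Every Ndrg3 LKO liver lay well below the lowest WT liver. The fall was 2.38-fold (605 ± 64.5 against 255 ± 55.1 CPM, SD, n = 5; log2 fold change -1.25, SE 0.17, adjusted p = 1.93e-04, edgeR), and the log2 fold change was -1.35 without Ndrg3 LKO replicate 5.

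Pck1 (chr2:172978549-172984774, plus strand) encodes the cytosolic enzyme that turns oxaloacetate into phosphoenolpyruvate. It measured 6977, 5642, 4524, 6347 and 4337 CPM in WT and 4788, 3831, 5272, 2672 and 6841 CPM in Ndrg3 LKO livers. The groups overlapped widely: Ndrg3 LKO replicates 2 and 4 lay under all WT livers, and replicate 5 lay close to the highest of them. The difference did not pass the test (log2 fold change -0.25, SE 0.26, adjusted p = 0.442, edgeR), and its 95% interval ran from 0.57-fold to 1.24-fold. Without replicate 5 the log2 fold change was -0.44 (adjusted p = 0.116, edgeR).

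Fbp1 (chr13:62966113-62989642, minus strand) encodes the liver fructose-1,6-bisphosphatase. WT livers held 984, 1273, 1165, 1158 and 1281 CPM, and Ndrg3 LKO livers 2034, 1774, 1989, 1484 and 1887 CPM. All Ndrg3 LKO livers, replicate 5 included, lay above the highest WT liver. The mean rose 1.56-fold, from 1172 ± 120 to 1834 ± 219 CPM (SD, n = 5; log2 fold change 0.65, SE 0.16, adjusted p = 0.00518, edgeR). Without replicate 5 it was 0.62 on the log2 scale.

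G6pc (chr11:101228875-101239217, plus strand) encodes the catalytic subunit of glucose-6-phosphatase, the last enzyme of both gluconeogenesis and glycogen breakdown. Its values were 658, 708, 593, 798 and 833 CPM in WT and 584, 701, 820, 403 and 633 CPM in Ndrg3 LKO livers. As for Pck1, the lowest value belonged to Ndrg3 LKO replicate 4 and most values of the groups were interleaved. The log2 fold change was -0.19 (SE 0.19, adjusted p = 0.429, edgeR), with a 95% interval of 0.65-fold to 1.17-fold, and -0.21 without replicate 5. The enzymes of the pathway thus did not move in 1 direction: Pcx fell, Fbp1 rose, and Pck1 and G6pc did not pass the test.

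Ppargc1a (chr5:51845488-51958964, minus strand) encodes PGC-1alpha, a coactivator that glucagon induces in liver and that acts with HNF4A and FOXO1 on the Pck1 and G6pc promoters. It measured 13.2, 9.72, 12.6, 14.0 and 9.999 CPM in WT and 57.9, 139.6, 113.0, 52.0 and 41.3 CPM in Ndrg3 LKO livers. The lowest Ndrg3 LKO liver, replicate 5, was still above every WT liver, and replicates 2 and 3 were the highest. Of the 10 genes it had the largest change, 6.78-fold higher (95% interval 4.14-fold to 11.1-fold; log2 fold change 2.76, SE 0.33, adjusted p = 7.04e-05, edgeR). Without replicate 5 the log2 fold change was 2.91. The change of the coactivator was not accompanied by a called rise of Pck1 or G6pc in the same livers.

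Gcgr (chr11:120392013-120400402, plus strand) encodes the glucagon receptor, a G protein-coupled receptor that raises cAMP. WT livers were tightly grouped at 260.2, 272, 226, 279.7 and 272 CPM, and Ndrg3 LKO livers ranged over 121, 56.9, 83.0, 99.8 and 185 CPM. Replicate 2 was the lowest and replicate 5 the closest to WT, but none reached the WT range. The receptor fell 2.40-fold (262 ± 21.1 against 109 ± 48.4 CPM, SD, n = 5; log2 fold change -1.26, SE 0.26, adjusted p = 0.00206, edgeR), and by 1.55 on the log2 scale without replicate 5.

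Insr (chr8:3150922-3279617, minus strand) encodes the insulin receptor, a receptor tyrosine kinase. Its levels were 121, 104, 121, 123 and 91.3 CPM in WT and 62.4, 82.1, 71.0, 65.2 and 87.5 CPM in Ndrg3 LKO livers. The groups were apart by a narrow margin, with Ndrg3 LKO replicate 5 just under WT replicate 5. The fall was 1.52-fold (log2 fold change -0.61, SE 0.14, adjusted p = 0.00362, edgeR), and the log2 fold change was -0.69 without replicate 5. This call depended on the scaling: with library totals alone the log2 fold change was -0.10 (adjusted p = 0.613, edgeR), which is -0.65 relative to the median of all genes under that scaling.

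Irs1 (chr1:82229676-82287991, minus strand) encodes the first of the insulin receptor substrates, which link the receptor to PI3-kinase. It held 24.1, 20.2, 19.8, 15.1 and 13.9 CPM in WT and 42.9, 49.4, 45.2, 29.0 and 23.8 CPM in Ndrg3 LKO livers. Ndrg3 LKO replicates 1 to 4 lay above all WT livers, and replicate 5 lay just under WT replicate 1. The mean was 2.05-fold higher (18.6 ± 4.12 against 38.1 ± 11.1 CPM, SD, n = 5; log2 fold change 1.03, SE 0.22, adjusted p = 0.00266, edgeR), and the log2 fold change was 1.15 without replicate 5.

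Irs2 (chr8:10986980-11008458, minus strand) encodes the other main hepatic substrate, whose transcript is raised in fasting and lowered by insulin. It was low in WT, at 6.34, 2.49, 2.73, 6.20 and 4.52 CPM (113, 51, 49, 135 and 76 counts), and spread widely in Ndrg3 LKO, at 3.71, 39.2, 38.8, 7.72 and 1.79 CPM (129, 1618, 1508, 271 and 38 counts). Replicates 2 and 3 were far above every WT liver, replicate 4 was slightly above, replicate 1 was within the WT range and replicate 5 was below it. The log2 fold change was 2.04 (SE 0.74, adjusted p = 0.0390, edgeR), with a 95% interval of 1.34-fold to 12.6-fold. The call was lost in 10 of 19 alternative analyses (adjusted p from 0.00690 to 0.342 over them). Without Ndrg3 LKO replicate 2 the log2 fold change was 1.55 (adjusted p = 0.0975, edgeR), without replicate 3 it was 1.57 (adjusted p = 0.101, edgeR), and without replicate 5 it was 2.31 (adjusted p = 0.00690, edgeR). The 2 livers with high Irs2 were also the highest in Ppargc1a and Irs1.

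Igfbp1 (chr11:7097785-7102549, plus strand) encodes a secreted binding protein of insulin-like growth factors, made mainly by the liver and lowered by insulin. WT livers held 381, 534, 469.7, 266 and 591 CPM, and Ndrg3 LKO livers 125.6, 169, 242, 106 and 247 CPM. The highest Ndrg3 LKO livers, replicates 3 and 5, lay just below the lowest WT liver, replicate 4. The fall was 2.52-fold (448 ± 128 against 178 ± 65.0 CPM, SD, n = 5; log2 fold change -1.33, SE 0.28, adjusted p = 0.00246, edgeR), and the log2 fold change was -1.49 without replicate 5.

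Replicate 5 of Ndrg3 LKO was the liver that differed least from WT for most of these genes. For 7 of the 8 called genes it had the lowest value of the Ndrg3 LKO livers where the gene rose, or the highest where it fell, with Fbp1 the exception. Over all 5443 called genes the same liver held that place for 52.8%. Leaving it out changed none of the 10 calls, and 7 of the 8 called genes, all but Fbp1, then had larger log2 fold changes.

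Scaling by library totals moved the whole set of genes upward. Over all genes tested, the median log2 difference was 0.03 with TMM and 0.56 with library totals, and the share of calls that were higher in Ndrg3 LKO went from 52.6% to 85.2%. Under that scaling Pck1 and G6pc had positive log2 fold changes, 0.23 and 0.34, neither of which passed the test, and set against that median they were -0.33 and -0.22. Of the 8 called genes, those other than Insr kept their direction and their call.

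**Figure D2:**
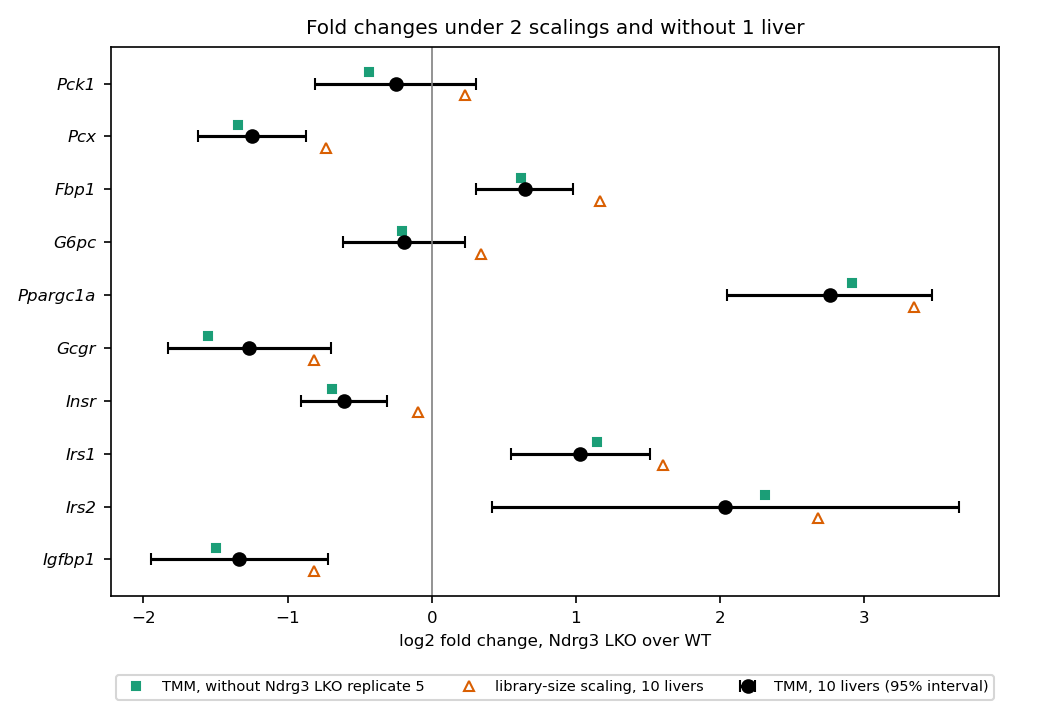
log2 fold change of Ndrg3 LKO over WT for the 10 genes: circles are the values with TMM scaling and their 95% intervals (n = 5 per group), squares those without Ndrg3 LKO replicate 5, and open triangles those with library-size scaling. Triangles lie to the right of circles for every gene, and for Pck1, G6pc and Insr this changed the sign or the call.

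Levels of different genes were compared per kilobase of annotated exon. In WT livers the mean TMM-normalized CPM per kb fell from 1623 for Pck1 through 689 for Fbp1, 297 for G6pc, 294 for Igfbp1, 142 for Pcx and 95.9 for Gcgr to 11.6 for Insr, 2.04 for Irs1, 1.79 for Ppargc1a and 1.11 for Irs2. G6pc (246 to 345 per kb) and Igfbp1 (175 to 387 per kb) overlapped among WT livers, as did the last 3 genes. By their means the first 6 genes stood in the same order in Ndrg3 LKO livers, at 1365, 1077, 260.1, 117, 59.6 and 39.9 per kb, but the ranges over livers of Pck1 (779 to 1995) and Fbp1 (872 to 1195), of Igfbp1 (69.4 to 162) and Pcx (45.5 to 73.4), and of Pcx and Gcgr (20.8 to 67.6) overlapped. Below them Ppargc1a, at 12.2 per kb, stood above Insr at 7.62, Irs2 at 4.54 and Irs1 at 4.16 per kb. Ppargc1a (6.22 to 21.0 per kb) and Insr (6.45 to 9.05 per kb) overlapped among these livers. Irs1 lay below Insr in both groups (2.60 to 5.40 per kb in Ndrg3 LKO), and Irs2 lay below Insr in WT but spread from 0.445 to 9.74 per kb in Ndrg3 LKO livers.

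Ratios of 2 genes within a liver do not depend on the scaling between libraries, and 3 of them were tested by an exact two-sided permutation test over every split of the 10 livers into groups of 5. The ratio of Gcgr to Insr counts, glucagon receptor to insulin receptor, was 2.15, 2.60, 1.87, 2.27 and 2.98 in WT and 1.95, 0.693, 1.17, 1.53 and 2.11 in Ndrg3 LKO livers. It was 1.69-fold lower in Ndrg3 LKO, with 2 of the 5 livers (replicates 1 and 5) inside the WT range (difference of mean log2 ratios -0.76, exact p = 0.0317, adjusted over the 3 ratios p = 0.0952), so it did not pass after adjustment. The ratio of Pck1 to G6pc was 5.21 to 10.6 in WT (median 7.95) and 5.47 to 10.8 in Ndrg3 LKO (median 6.63), and did not differ beyond the spread (difference -0.07, exact p = 0.762, adjusted p = 0.778). The ratio of Irs2 to Irs1 was 0.124 to 0.411 in WT (median 0.264) and 0.0762 to 0.859 in Ndrg3 LKO (median 0.267), with replicates 2 and 3 above and replicates 1 and 5 below the WT range (difference 0.19, exact p = 0.778, adjusted p = 0.778).

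**Figure D3:**
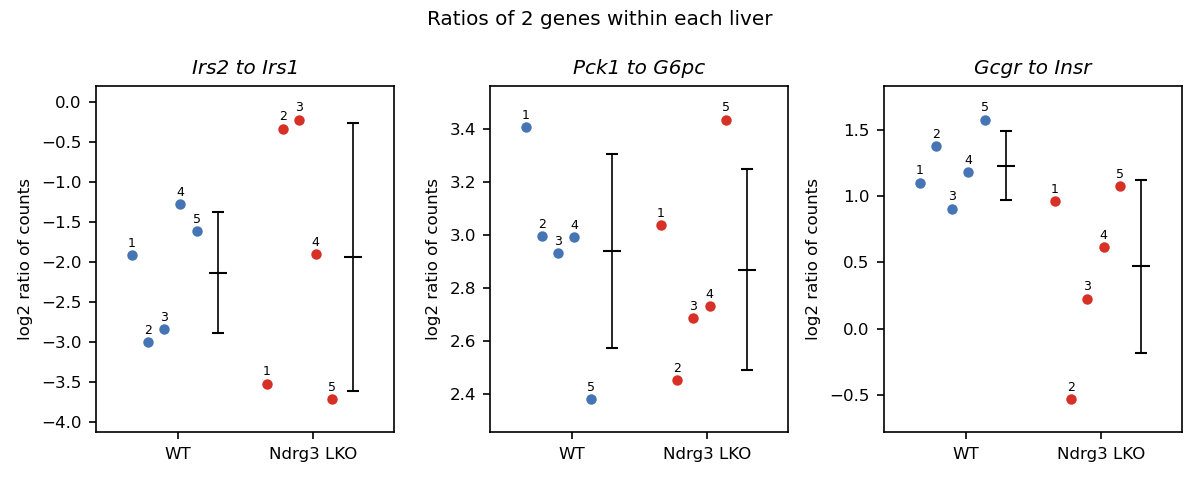
log2 ratio of the counts of 2 genes within each WT (blue) and Ndrg3 LKO (red) liver, with replicate numbers and, at the right of each group, the mean and SD (n = 5). Gcgr to Insr is lower on average in Ndrg3 LKO but overlaps WT, and Irs2 to Irs1 is spread more widely in Ndrg3 LKO, from 0.0762 to 0.859 as a linear ratio.

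The other genes of the glucose production pathway include glycolytic enzymes that run in both directions, transporters and shuttles. G6pc2 and Eno1 were listed but did not reach the filter of 1 CPM in 5 livers, for a reason not examined. Of the 27 tested, 14 were higher, 4 lower and 9 not called. The median log2 fold change was 0.48, against 0.03 for all genes. Of all 11208 genes tested, 25.6% were higher and 23.0% lower, which is the background for this and the following lists. Pck2, the mitochondrial isoenzyme of Pck1, rose 6.64-fold from 2.21 ± 0.42 to 14.7 ± 3.98 CPM (SD, n = 5; adjusted p = 7.60e-06, edgeR). Mdh2, the mitochondrial malate dehydrogenase, rose by 1.83 on the log2 scale (adjusted p = 9.78e-05, edgeR), and G6pc3, the widely expressed relative of G6pc, by 1.45 (adjusted p = 3.58e-04, edgeR). Slc37a4, which carries glucose 6-phosphate to the G6pc enzyme in the endoplasmic reticulum, fell 2.90-fold from 361 ± 19.3 to 124 ± 67.6 CPM (adjusted p = 0.00159, edgeR). The aspartate-glutamate carrier Slc25a13 and the glycerol channel Aqp9 fell by 0.90 and 0.84 on the log2 scale, and the call for Aqp9 was lost with library totals.

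Of 24 transcription regulators of gluconeogenesis, 4 were higher and 10 lower in Ndrg3 LKO, against 25.6% and 23.0% of all genes tested. The median log2 fold change was -0.23. Lower genes included Nr0b2, encoding the repressor SHP, at -2.18 (SE 0.47; -2.77 without Ndrg3 LKO replicate 5), and the hepatocyte factors Cebpa at -1.76 (SE 0.28) and Hnf4a at -1.58 (SE 0.21). Higher genes included Nr1d1, encoding the clock repressor REV-ERBalpha, at 3.28 (SE 0.49), Esrra, encoding a nuclear receptor that PGC-1alpha coactivates, at 1.18 (SE 0.16), and Foxa2 at 0.79 (SE 0.17). Foxo1 was not called, at -0.21. The related coactivator gene Ppargc1b was also not called, at -0.24, beside the 2.76 of Ppargc1a. With library totals the list had 5 higher and 5 lower genes, where 5821 of all 11208 genes were higher and 1010 lower.

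In glucagon and cAMP signalling beyond the receptor, 12 of 22 genes tested were higher and 4 lower, against 25.6% and 23.0% of all genes. The list median was 0.50. The phosphodiesterase Pde4b, which breaks down cAMP, rose by 1.89 (SE 0.44), the receptor-activity modifier Ramp2 by 1.57 (SE 0.24) and the catalytic subunit of protein kinase A, Prkaca, by 0.69 (SE 0.16). Adcy6, an adenylate cyclase, fell by 1.09 (SE 0.16), the endoplasmic reticulum calcium channel Itpr1 by 0.60 (SE 0.16) and the insulin-activated phosphodiesterase Pde3b by 0.57 (SE 0.20). The calls for Itpr1 and Pde3b were lost with library totals, and that for Pde3b also without some single livers. Endothelial and macrophage marker sums were higher in the same livers, as given above, and their part in this list was not tested.

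Insulin signalling beyond the receptor and its substrates had 2 higher and 13 lower genes of 34 tested, against 25.6% and 23.0% of all genes. The list median was -0.07. Ceacam1, a membrane protein that acts in insulin clearance, fell by 1.23 (SE 0.26), the PI3-kinase regulatory subunit Pik3r2 by 1.09 (SE 0.18) and Enpp1, an inhibitor of the receptor, by 1.04 (SE 0.17). Rheb, the activator of mTORC1, rose by 0.42 (SE 0.13), a call lost without wild type replicate 2 (adjusted p = 0.0501, edgeR) and in 1 other alternative. Akt1 and Akt2 were not called, at 0.09 and 0.18. With library totals the split of the list turned to 13 higher and 3 lower, where 5821 of all 11208 genes were higher and 1010 lower. The list median was then 0.48, below the 0.56 of all genes.

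**Figure D4:**
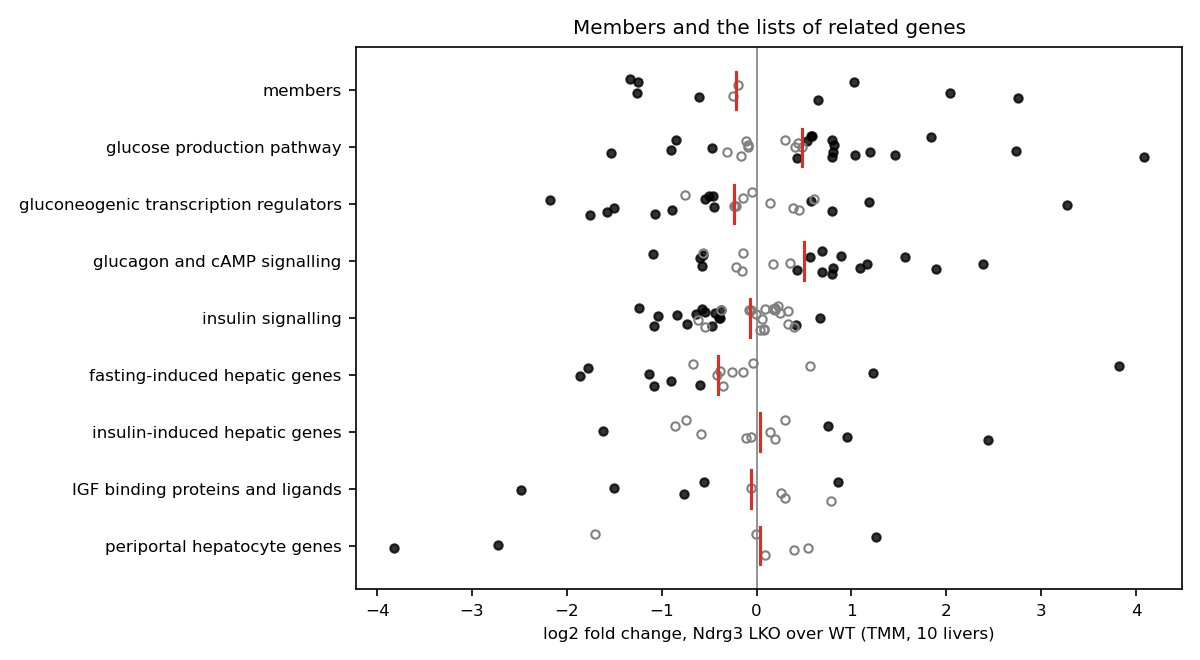
log2 fold change of Ndrg3 LKO over WT (TMM, 10 livers) for the 10 genes, shown in the top row as members, and for the tested genes of 8 related lists: filled points passed an adjusted p under 0.05, open points did not, and the red line is the list median. Medians ranged from -0.40 for fasting-induced genes to 0.50 for glucagon and cAMP signalling, with both directions present in every list.

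Among 16 genes known to be induced in the fasted liver, 2 were higher and 6 lower, against 25.6% and 23.0% of all genes. The list median was -0.40. Nr4a1, an immediate-early nuclear receptor gene that cAMP induces, rose 14.1-fold from 1.71 ± 0.98 to 24.0 ± 11.8 CPM (adjusted p = 7.88e-05, edgeR) and the clock gene Per1 rose by 1.23 on the log2 scale. Txnip, which slows glucose uptake, fell by 1.86, the tyrosine-degrading enzyme Tat by 1.78, and Sesn1 by 1.08. Tat is also 1 of the 10 hepatocyte markers summed above. It reached 5016 CPM in Ndrg3 LKO replicate 5, against 532 to 1466 CPM in the other 4 livers of the group. Its log2 fold change was -2.67 without replicate 5. Of 12 tested genes that insulin induces in liver, 3 were higher and 1 lower, against the same shares of all genes. The list median was 0.04, and -0.55 without Ndrg3 LKO replicate 5. The higher genes were Gm6484, an older symbol of Angptl8, at 2.44 (SE 0.25), the malic enzyme Me1 at 0.96 (SE 0.19) and the acetyl-CoA carboxylase Acaca at 0.75 (SE 0.23). Thrsp, a lipogenic gene, was lower by 1.62 on the log2 scale (SE 0.57), a call lost in 6 of 19 alternatives, and was at -2.34 without replicate 5. Srebf1, which encodes a lipogenic transcription factor, was not called, at 0.19.

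Genes related to Igfbp1 were lower in 4 and higher in 1 of 9 tested, against 23.0% lower and 25.6% higher of all genes. The list median was -0.06. Igfals, the third subunit of the circulating IGF complex, fell by 2.48 (SE 0.27) and Igf1 by 0.76 (SE 0.14), Igfbp2 was at -1.498 (SE 0.46), and Igfbp7 rose by 0.86 (SE 0.17). The call for Igf1 was lost with library totals. Ass1, listed with the genes of periportal hepatocytes, did not reach the filter of 1 CPM in 5 livers, for a reason not examined. Of 8 tested genes of periportal hepatocytes, the cells in which gluconeogenesis is strongest, 2 were lower and 1 higher, against the same shares of all genes. The list median was 0.04. Sult5a1 fell from 17.5 ± 1.34 to 1.28 ± 1.62 CPM, Cyp2f2 from 1235 ± 246 to 188 ± 348 CPM, and Etnppl rose from 184 ± 59.5 to 441 ± 254 CPM (SD, n = 5). Cyp2f2 was at 808 CPM in Ndrg3 LKO replicate 5 and at 11.2 to 69.9 CPM in the other 4, and its log2 fold change was -2.72 with and -5.27 without replicate 5. Its call was lost in 9 of 19 alternatives. As background for the list counts that follow, 3252 of all 11446 genes tested were higher and 3108 lower without Ndrg3 LKO replicate 5. Under scaling by library totals, 5821 of 11208 were higher and 1010 lower. Without replicate 5 the counts of higher and lower genes were 15 and 5 for glucose production, 4 and 10 for regulators, 11 and 4 for glucagon and cAMP signalling, 3 and 13 for insulin signalling, 2 and 8 for fasting-induced genes, 3 and 1 for insulin-induced genes, 1 and 4 for the IGF list and 1 and 3 for periportal genes. With library totals they were 20 and 2 for glucose production, 13 and 1 for glucagon and cAMP signalling, 2 and 4 for fasting-induced genes and 4 and 1 for insulin-induced genes, while the split turned to 3 higher and 2 lower for the IGF list and to 5 and 2 for periportal genes.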

How the data were processed

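RNA from 5 WT and 5 Ndrg3 LKO livers was made into stranded mRNA libraries and read as 100 bp paired ends. The deposited values are raw counts per gene, which the authors made with the counting module of STAR on mm9. The methods name STAR v2.5.1 and the submitters' processing notes STAR 2.7.3a, with Trim Galore 0.6.4 and Cufflinks 2.2.1, and the annotation and strand setting are not given in the sources used here. Of 24052 symbols, 25 were written as dates and 6306 had 0 counts in every liver. No value of the authors' own comparisons was used.

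The 11208 genes that reached 1 CPM in 5 or more livers were fitted with edgeR 4.0.16 in R 4.3.3 (TMM, quasi-likelihood test, Benjamini-Hochberg adjustment, threshold 0.05), with genotype as the term. Intervals are at 95% and assume the fitted spread. Ratios were tested on log2 counts, 0.5 added, by exact permutation. A count of 3 was taken as the floor, 0.0985 to 0.144 CPM. DESeq2 1.42.0, limma 3.58.1, other scalings and filters, a replicate block and leaving out each liver were alternatives. The edgeR script was tested on simulated data in which few genes changed. That test does not cover data like these, in which 48.6% of the genes tested were called. The methods describe 5 mice per group, and no 2 livers of a group held identical counts.

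Same-numbered livers of the groups deviated with correlations of -0.357 to 0.036, so numbers were not taken as pairs. The 10 genes and all lists were chosen with earlier results of these data known. Named genes are the 10 members, Ndrg3, and from each list up to 3 called genes per direction, by size of change, with a mean of at least 10 CPM in the higher group. Foxo1, Ppargc1b, Akt1, Akt2 and Srebf1 were added after their values were seen. Gene positions are from GENCODE vM1 (mm9). Promoter letters are from RefSeq.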

Additional observations from a re-analysis of the deposited data

Results flagged for a closer look

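None of the 10 genes had a liver far from the rest of its group by Dixon's ratio (gap over range above 0.71 for 5 livers). The ratio uses the gap to the nearest liver, so it could not flag Irs2, high in 2 Ndrg3 LKO livers (39.2 and 38.8 CPM). Over the 10 genes, Ndrg3, the ratios, the related genes and the marker sums, 12 of 120 groups of 5 held a flagged liver. Chance gives about 1 in 20. All 12 were of related genes or marker sums. Ndrg3 LKO replicate 5 accounted for most of them. Its value, against the range of the other 4 livers of its group in CPM, was 6.41 against 11.5 to 13.1 for G6pc3, 14.3 against 2.703 to 4.97 for Nr0b2, 195 against 65.8 to 101 for Cebpa, 362 against 181 to 227 for Hnf4a and 25.0 against 39.6 to 45.3 for Foxa2. For Tat it was 5016 against 532 to 1466, for Cyp2f2 808 against 11.2 to 69.9 and for the hepatocyte marker sum 164000 against 37870 to 47230.

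In other livers, Gm6484 stood at 145 CPM in Ndrg3 LKO replicate 4 against 61.0 to 82.1, and Acaca at 71.3 CPM in wild type replicate 4 against 32.2 to 41.8. The adipocyte marker sum was 9.69 CPM in wild type replicate 4 against 0.357 to 1.22, and the pancreas marker sum 58.7 CPM in wild type replicate 5 against 32.1 to 38.9.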

How the results depend on the processing

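The number of genes called was 5443, and 4254 to 6831 over the alternatives (4703 to 6360 with 1 liver left out), all within 1.5 times. Of the 10 genes, 7 or 8 were called with 1 liver left out. Pcx, Fbp1, Ppargc1a, Gcgr, Irs1 and Igfbp1 kept their direction and call under all 19 alternatives. With library-size scaling the log2 fold changes of Pck1 (0.23) and G6pc (0.34) turned positive, and Insr (-0.096) was no longer called, while the median of all genes moved to 0.56. Irs2 was no longer called with limma on log2(CPM + 1) (1.12) or log2(CPM + 0.1) (1.19), nor in 7 of the 10 analyses without 1 liver, in which it ranged from 1.55 to 2.31. With a replicate block, Irs2 was at 1.14 (adjusted p = 0.342, edgeR), 4412 genes were called and no other call among the 10 genes changed. The numbers share only a label, and no liver correlated best with its own number. Without 1 liver, the difference in log2 ratio ranged from -0.24 to 0.64 for Irs2 to Irs1, from -0.22 to 0.043 for Pck1 to G6pc and from -0.91 to -0.51 for Gcgr to Insr, and the last passed (adjusted p = 0.0476, exact permutation) without Ndrg3 LKO replicate 1 (-0.88) or replicate 5 (-0.91). Among 38 related genes a call was lost in 24 combinations of gene and alternative. The cause of these changes was not tested. The lowest count of any of the 10 genes was 38, for Irs2 in Ndrg3 LKO replicate 5, against a floor of 3.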
